A study of Homo sapiens with 9 samples.

Results

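LINC symbols are names given to long intergenic noncoding RNA genes, each made of the letters LINC and a number. In the count files of SKNO-1 cells, 744 symbols had this form, and 111 of them reached 100 or more counts in total over the 9 libraries and are described here. The other 633 fell short of that limit, 389 of them with no count in any library. The members were 111 of the 25680 symbols in the files, and all 111 passed the filter on low counts that left 14199 symbols for testing. The members were chosen by their total count, which is therefore no finding. Just inside the limit were LINC01301 with 100 counts, LINC00086 with 101 and LINC01144 with 102, and just outside it were LINC01372 with 99, LINC01160 with 94 and LINC01285 with 85.

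SKNO-1 is a human acute myeloid leukaemia line that carries the t(8;21) fusion AML1-ETO (RUNX1-RUNX1T1), and it was grown with GM-CSF. The study compared control cells (EV, an abbreviation the labels do not explain) with cells carrying either of 2 shRNAs against ASXL2, a chromatin regulator (SH2 and SH3). Each group held 3 libraries numbered 1, 13 and 25, and the labels do not say what these numbers stand for. All 9 libraries came from 1 line carrying the fusion, so they are no sample of patients, and the labels do not say whether the libraries of a group came from separate cultures. Libraries held 27714431 to 35406063 counts with 1 row per symbol. ASXL2 stood at 67.9, 67.9 and 74.7 CPM in EV (counts scaled to the effective library size after TMM normalization) and at 26.9 to 41.1 CPM in the 6 knockdown libraries, with no overlap. Its fitted log2 difference of both shRNAs from EV was -1.09 with the number as a block (SE 0.08, adjusted p = 0.00098) and -1.08 without it (SE 0.13, adjusted p = 0.177). Of the markers of the line, MPO (6368 to 10243 CPM), KIT (237 to 419 CPM) and RUNX1T1 (111 to 138 CPM) were high, whereas CD34 did not exceed 0.309 CPM. Summed markers of T cells, erythroid cells and epithelial cells stayed at or below 0.208, 0.375 and 0.136 CPM, and 5 stromal markers summed to 1.00 to 2.13 CPM, of which PDGFRB alone gave 0.935 to 1.97 CPM. The SH3 library numbered 1 stood apart from the others in some members below. The counts of members called, and some of the log2 differences, are therefore also given without it.

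Long noncoding RNAs are transcribed, spliced and often polyadenylated like messenger RNAs but carry no long reading frame. Some act where they are made, on neighbouring genes, and others act as scaffolds or decoys for proteins elsewhere in the cell. A LINC number is a placeholder given while nothing is known of a transcript, so it can be replaced by a name once a function is found, and it can also cover a short reading frame that is translated. Of the 111 members, 35 carried another symbol in RefSeq, 13 were classed there as protein-coding and 96 as long noncoding. The unstranded libraries and the poly(A) selection described in the methods bear on such genes, since an overlapping gene on either strand gives the same reads.

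The RefSeq promoter table (build GRCh38.p14, 250 bases before to 50 after the start) held 82 of the members. Those of LINC00908, LINC00263 and LINC00426, which were among the 4 members with the largest log2 difference of the libraries numbered 1, of LINC01215, which was highest in the libraries numbered 13, and of LINC01268, the lowest-p member of the SH2 contrast with the block, are printed in the direction of transcription. Capitals mark matches, on either strand, to the short motifs counted below.
LINC00908, chr18:76528405-76528704, + strand: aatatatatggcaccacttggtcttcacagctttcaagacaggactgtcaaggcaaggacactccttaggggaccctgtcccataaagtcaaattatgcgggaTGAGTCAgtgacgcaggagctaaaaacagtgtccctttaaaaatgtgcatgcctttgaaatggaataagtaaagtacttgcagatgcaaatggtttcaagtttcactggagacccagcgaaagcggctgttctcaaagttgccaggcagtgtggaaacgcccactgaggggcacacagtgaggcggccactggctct
LINC00263 (OLMALINC), chr10:100373326-100373625, + strand: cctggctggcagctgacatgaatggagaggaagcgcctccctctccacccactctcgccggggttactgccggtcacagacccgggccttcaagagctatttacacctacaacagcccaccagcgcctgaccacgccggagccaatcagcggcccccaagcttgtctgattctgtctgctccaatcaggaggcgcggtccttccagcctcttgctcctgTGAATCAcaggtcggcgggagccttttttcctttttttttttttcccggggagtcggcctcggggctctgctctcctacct
LINC00426, chr13:30373865-30374164, - strand: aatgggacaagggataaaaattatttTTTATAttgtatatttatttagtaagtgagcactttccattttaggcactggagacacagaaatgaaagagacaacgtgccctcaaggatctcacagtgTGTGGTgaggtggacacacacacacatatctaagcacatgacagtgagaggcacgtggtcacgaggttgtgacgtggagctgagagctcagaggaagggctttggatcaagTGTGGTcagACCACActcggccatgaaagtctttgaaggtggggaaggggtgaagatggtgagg
LINC01215, chr3:108125571-108125870, + strand: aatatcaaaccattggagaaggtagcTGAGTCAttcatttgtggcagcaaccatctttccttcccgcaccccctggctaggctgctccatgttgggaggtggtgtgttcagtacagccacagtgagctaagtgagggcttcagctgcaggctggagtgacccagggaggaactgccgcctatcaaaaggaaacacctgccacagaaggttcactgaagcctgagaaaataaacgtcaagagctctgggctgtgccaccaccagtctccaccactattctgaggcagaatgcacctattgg
LINC01268 (MROCKI), chr6:113873298-113873597, - strand: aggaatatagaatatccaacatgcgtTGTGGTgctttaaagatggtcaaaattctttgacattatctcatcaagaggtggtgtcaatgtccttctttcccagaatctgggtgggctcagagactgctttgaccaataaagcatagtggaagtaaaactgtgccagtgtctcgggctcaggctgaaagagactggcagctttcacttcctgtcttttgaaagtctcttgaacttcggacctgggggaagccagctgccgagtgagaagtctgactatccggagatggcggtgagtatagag

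The capitals in LINC00908, LINC00263 and LINC01215 are matches to the AP-1 motif TGANTCA, which 11 of the 82 member promoters held (13.4%, against 7.71% of all 35116 promoters in the table). LINC01268 held 1 copy of the RUNX motif TGTGGT, found in 11 member promoters (13.4%, against 13.1% of all). LINC00426 held 3 copies of that motif and 1 match to TATAAA, the letters of a TATA box. That match lay on the opposite strand and far before the start, so it is not called a TATA box here. TATAAA was in 10 member promoters (12.2%, against 11.5% of all). The other RUNX form searched, TGCGGT, was in 7 member promoters (8.54%, against 7.29% of all). The ETS motif CCGGAAGT was also in 7 (8.54%, against 4.14% of all). Both strands were searched and no motif contains another. The median GC content was 58.0% in member promoters and 58.7% in all promoters. These matches describe the letters of the window and no binding was measured in these files.

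Levels were compared between members per length, as CPM divided by the transcript length in kilobases (RPKM), for the 97 members with a transcript of 300 bases or more on GRCh37. The length was that of 1 GENCODE transcript per gene, which can differ from the RefSeq row that was counted. LINC00674, with 27574 counts in total, had a transcript of 160 bases, and LINC01000, with 19522 counts, was not placed. Neither was therefore ranked, although both were among the most counted members. The mean RPKM over the 9 libraries had a median of 1.35 over members, 17 members were at 10 or more and 40 were below 1. The highest was LINC00998, now SMIM30, which encodes a small membrane protein, at 92.3 ± 10.8 RPKM (SD, n = 9). LINC00657 (NORAD), a long unspliced RNA that binds Pumilio proteins, followed at 63.4 ± 3.30 RPKM, and it alone gave 25.3% of all member counts. Next came 2 more loci for small proteins, LINC00493 (SMIM26) at 56.2 ± 8.17 RPKM and LINC00116 (MTLN, a mitochondrial micropeptide) at 50.7 ± 6.35 RPKM. The ranges of LINC00493 (48.0 to 72.2 RPKM) and of LINC00657 (57.8 to 66.7 RPKM) overlapped, so their order is within the spread, and so is that of LINC00493 and LINC00116 (42.4 to 61.0 RPKM). A gap followed to LINC00342 at 23.9 RPKM, LINC00665 at 22.4, LINC00539 at 20.2, LINC00263 (OLMALINC) at 15.8, LINC01420 (NBDY, a micropeptide of the mRNA decapping complex) at 15.2 and LINC00152 (CYTOR) at 13.8 RPKM. Neighbours in this order overlapped in range, while LINC00665 (19.1 to 25.7 RPKM) lay above LINC01420 (13.4 to 17.9 RPKM). LINC00263 had the widest range of these 10, from 5.25 to 55.1 RPKM.

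**Figure D1:**
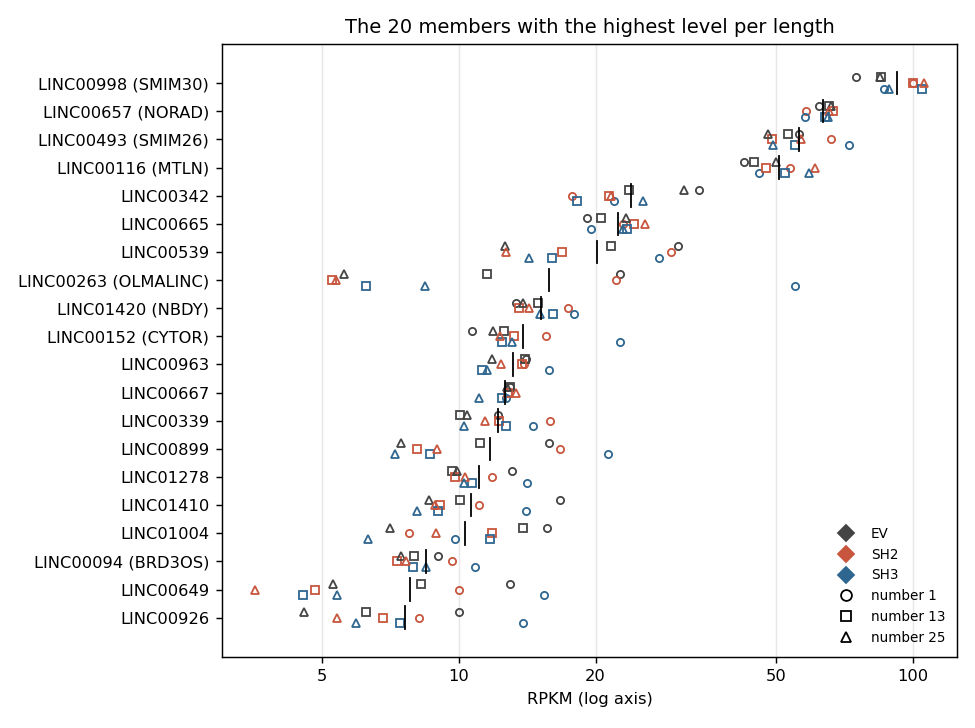
Level per length of the 20 members with the highest mean. The x axis is RPKM on a log axis, each row is a member (current RefSeq symbol in brackets), each open point is a library coloured by group and shaped by number, and the black bar is the mean of the 9 libraries. The means of 4 members are above 50 RPKM and clear of the other means, and the LINC00263 points reach from 5.25 to 55.1 RPKM.

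On GRCh37, 99 members could be placed by the GENCODE annotation without having been merged into another gene that is counted in the files. LINC00998 lies at chr7:112756773-112758615 on the - strand, LINC00657 at chr20:34633540-34638940 on the - strand and LINC00263 at chr10:102132856-102213800 on the + strand. The exons of 30 placed members overlapped an exon of another tested gene, so their counts cannot be told apart from that gene's on the overlap, and those of 69 did not. A stretch of at least 100 bases with 98% identity or more to another place in the genome was found in 16 members and covered at least 50% of the transcript in 10, among them LINC00152 (91.4%), LINC00342 (74.2%) and LINC01410 (73.7%). Counts of these are uncertain, since a read can come from either copy. The starts of 14 members lay within 1000 bases of the start of a protein-coding gene on the opposite strand, as that of LINC01184 does beside SLC12A2, a chloride transporter. LINC00341 and LINC01279 are now part of SYNE3 and CCDC80 in RefSeq, and LINC00908 was not placed, because RefSeq gives LINC00683 as another of its names.

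Knockdown of ASXL2 moved no member past the threshold. The 4 contrasts of the groups (SH2 against EV, SH3 against EV, both averaged against EV, and SH3 against SH2) called 0 of 111 members in edgeR, with or without the number as a block. Among all 14199 symbols they called 0% without the block, and with it 0.282% for SH2, 0.416% for SH3, 1.1% for both and 0.106% for SH3 against SH2. At an unadjusted p under 0.05, 3 members passed for SH2, 4 for SH3, 4 for both and 1 for SH3 against SH2 without the block, beside 5.37%, 5.09%, 6.63% and 2.06% of all symbols. With the block 14, 18, 14 and 16 members passed, beside 18.7%, 18.7%, 20.4% and 11.9% of all symbols. DESeq2 called 0 members without the block, beside 0.226%, 0.165%, 0.298% and 0.0612% of the symbols it tested, and with it 3, 1, 3 and 0 of the 74, 68, 81 and 81 members it tested, beside 2.97%, 3.97%, 4.82% and 1.19% of all symbols it tested. The median log2 difference of members from EV was -0.03 for SH2 and 0.05 for SH3, and that of all symbols was 0.01 for both. Only LINC00998 lay higher in all 6 knockdown libraries than in the 3 EV libraries, and only LINC01000 and LINC00883 lay lower, whereas 4.77% of all symbols did not overlap in this way, 2.18% higher and 2.6% lower.

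LINC00342, a noncoding RNA on chromosome 2, had the smallest p for both shRNAs against EV, and 74.2% of its transcript has a copy elsewhere in the genome. Its levels were 29.7, 20.8 and 27.6 CPM in the EV libraries numbered 1, 13 and 25, 15.6, 18.9 and 18.99 in SH2, and 19.3, 16.0 and 22.4 in SH3. Each knockdown library was below the EV library of its own number, but SH3 numbered 25 was above EV numbered 13. The fitted log2 difference of both shRNAs from EV was -0.49 (SE 0.15, edgeR adjusted p = 0.623), and -0.49 with the block (SE 0.11, adjusted p = 0.0659). DESeq2 with the block called it for SH2, SH3 and both, with adjusted p of 0.0125, 0.0468 and 0.00505. LINC01000 stood at 91.7, 77.6 and 76.4 CPM in EV, at 54.1, 70.2 and 66.8 in SH2 and at 66.6, 60.6 and 69.6 in SH3, so the groups did not overlap. Its log2 difference of both from EV was -0.34 (SE 0.10, edgeR adjusted p = 0.623), with an adjusted p of 0.0944 under the block and 0.0244 in DESeq2 with the block.

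LINC00998 (SMIM30) was the highest per length of the members that could be ranked. It was at 75.8, 86.0 and 85.7 CPM in EV, at 101, 101 and 107 in SH2 and at 87.2, 106 and 89.4 in SH3. The 6 knockdown libraries were all above EV, the closest being SH3 numbered 1 and EV numbered 13. The log2 difference was 0.32 for SH2 (SE 0.10, edgeR adjusted p = 0.808, and 0.0898 with the block) and 0.19 for SH3 (SE 0.10, adjusted p = 0.971, and 0.219 with the block). DESeq2 with the block called LINC00998 for SH2 (adjusted p = 0.0182) and for both (adjusted p = 0.029). LINC01268 (MROCKI), which is transcribed next to MARCKS, a protein kinase C substrate, had the smallest p of the SH2 contrast with the block. It was at 10.6, 6.77 and 6.27 CPM in EV, at 6.83, 4.70 and 3.64 in SH2 and at 10.8, 6.24 and 3.97 in SH3. In every group the library numbered 1 was the highest and that numbered 25 the lowest, and each SH2 library was below the EV library of its number. The log2 difference of SH2 from EV was -0.65 with the block (SE 0.15, adjusted p = 0.0829) and -0.64 without it (SE 0.38, adjusted p = 0.966), and MARCKS differed by 0.01 between SH2 and EV with the block (adjusted p = 0.975). LINC01184 (SLC12A2-DT) had lower values in SH3, at 12.02, 11.1 and 9.97 CPM, than in EV, where each library was at 12.3 CPM or more. The fitted difference of -0.32 did not pass (SE 0.13, adjusted p = 0.967, and 0.147 with the block).

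Leaving out the SH3 library numbered 1 changed these counts in the fit with the block. It then called 7 members for SH2 (1 higher, 6 lower, beside 11.2% of all symbols, 4.62% higher and 6.61% lower), 8 for both (3 higher, 5 lower, beside 12.3%, 5.09% higher and 7.19% lower) 0 for SH3 (beside 2.58%) and 0 for SH3 against SH2 (beside 0.721%). LINC00342, LINC01000, LINC00998 and LINC01268 were called in both lists, with log2 differences of both from EV of -0.49, -0.36, 0.26 and -0.51 and adjusted p of 0.0159, 0.0269, 0.0201 and 0.0152. LINC00649 was also called in both, at -0.47 (adjusted p = 0.0487). The shares of members called, 7 and 8 of 111, were below those of all symbols.

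**Figure D2:**
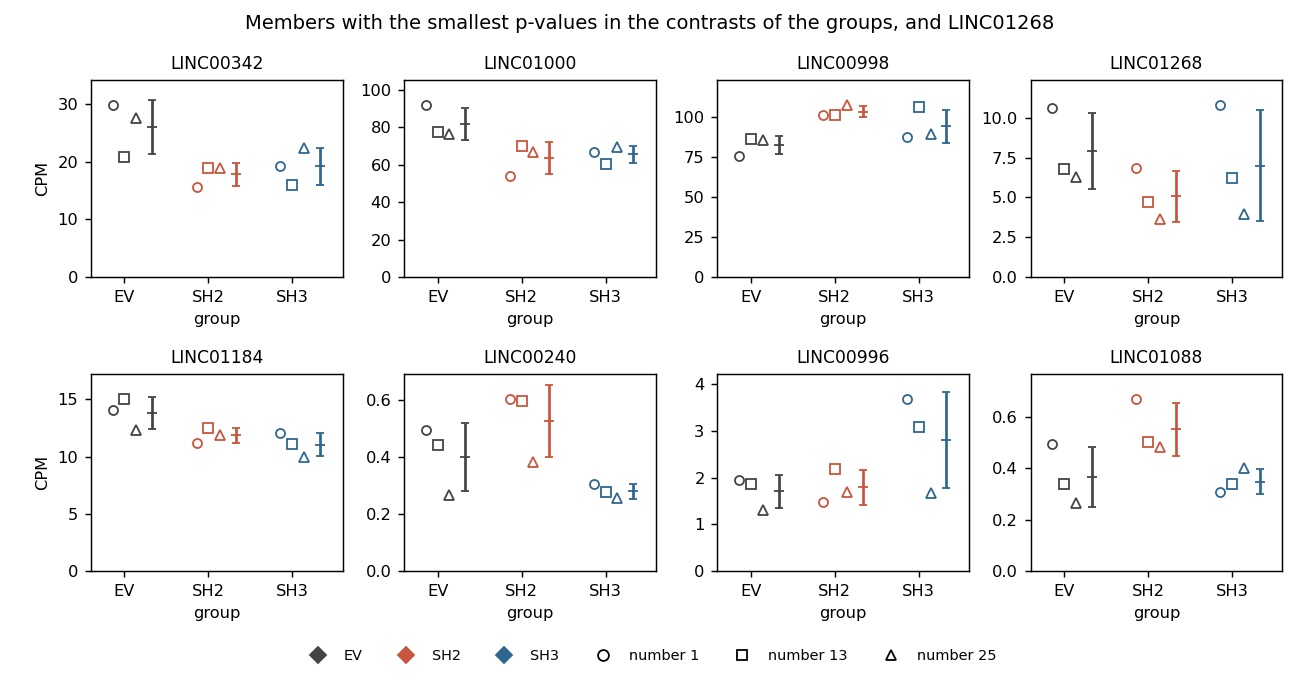
CPM of 8 members in EV, SH2 and SH3, with a separate y axis from 0 for each member. Open points are libraries, shaped by number, and the bar beside them is the mean and SD of the 3 libraries. LINC00342 and LINC01000 are lower and LINC00998 is higher in the knockdown groups, LINC01268 is highest in number 1 and lowest in number 25 within every group, and no member passed the threshold in edgeR with all 9 libraries.

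The shRNAs differed most from each other in 3 weakly counted members, none of which passed. LINC00240 was at 0.603, 0.595 and 0.381 CPM in SH2 and at 0.306, 0.278 and 0.255 CPM in SH3 for numbers 1, 13 and 25, with 112 counts over all libraries. EV, at 0.495, 0.442 and 0.267 CPM, lay between them number by number but overlapped both groups. The SH3 and SH2 libraries did not overlap. The log2 difference of SH3 from SH2 was -0.90 (SE 0.35, edgeR adjusted p = 0.998, and 0.309 with the block). LINC00996 was at 3.68, 3.09 and 1.67 CPM in SH3 and 1.47, 2.19 and 1.70 CPM in SH2, which differed by 0.65 on the log2 scale (SE 0.32, adjusted p = 0.998). Without SH3 numbered 1 this difference was 0.41. LINC01088 was at 0.306, 0.340 and 0.400 CPM in SH3 and 0.670, 0.501 and 0.485 CPM in SH2 and differed by -0.66 (SE 0.33, adjusted p = 0.998). At this depth 3 counts correspond to 0.0825 to 0.109 CPM, so such members rest on few reads.

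The libraries numbered 1 differed from those numbered 13 and 25 in many members. With the group kept as a term, edgeR called 53 of 111 members, 49 higher and 4 lower in the libraries numbered 1, where 46.3% of all symbols were called, 24.1% higher and 22.2% lower. The share called was close to the background, while the direction was not, since 44.1% of members were called higher and 3.60% lower. The direction is read from the 97 members that held 100 counts in the other 6 libraries alone. Of these, 43 were called higher and 4 lower, and their median log2 difference was 0.32. Of all 111 members, 90 had a positive log2 difference, and the median of the 111 was 0.34 against 0.01 for all symbols. All 3 libraries numbered 1 lay above the other 6 in 34 members and below them in 3, where 14.3% of all symbols lay higher and 12.1% lower. Within EV, number 1 was above both other numbers in 83 members and below both in 12. The same counts were 57 and 27 within SH2, and 77 and 21 within SH3. No share of all symbols was taken for these counts, so nothing about the members as a class is read from them. They and the counts over all 111 members above include 14 members that reached the limit on total counts only with the libraries numbered 1. Without the SH3 library numbered 1 the fit called 39 members, 38 higher and 1 lower, beside 33.7% of all symbols (17.3% higher, 16.3% lower), and the member median was 0.29. DESeq2 called 40 members, 37 higher and 3 lower, beside 40.1% of all symbols it tested. With a correction for transcript length and GC content, 44 of 102 members were called higher and 8 lower, and the split of all symbols moved from 3415 higher and 3155 lower to 2791 higher and 4241 lower. What sets the libraries numbered 1 apart was not tested.

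**Figure D3:**
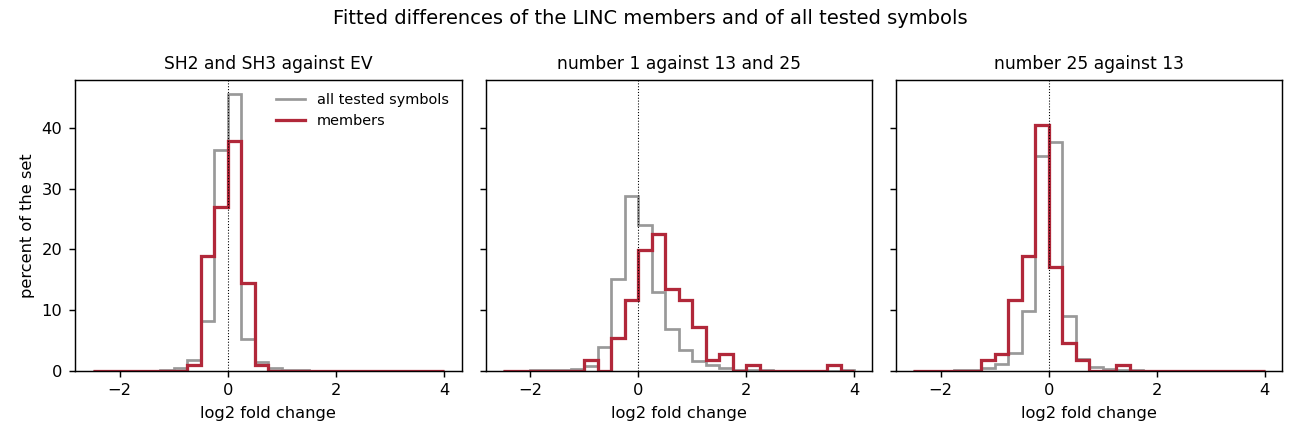
Histograms of fitted log2 fold changes in bins of 0.25, as percent of the 111 members (red) and of all 14199 tested symbols (grey), for both shRNAs against EV, for number 1 against 13 and 25, and for number 25 against 13. Values beyond the axis are in the end bins. The member histogram is shifted to the right in the second panel, where its median is 0.34, and to the left in the third, where it is -0.12.

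LINC00908 had the largest log2 difference. Of its counts 227 were in the libraries numbered 1 and 31 in the other 6, so it reached the limit of 100 counts only through the libraries in which it was high, and its values are a description. It was at 1.62, 1.10 and 4.60 CPM in the EV, SH2 and SH3 libraries numbered 1, at 0.306, 0.0627 and 0.154 CPM in those numbered 13, and at 0.100, 0.208 and 0.218 CPM in those numbered 25. The libraries numbered 1 lay above the other 6, which overlapped among themselves, and the log2 difference was 3.68 (SE 0.36), which became 3.0 without the SH3 library numbered 1. LINC00263 (OLMALINC), described in maturing oligodendrocytes and lying 8273 bases from SCD, the stearoyl-CoA desaturase that makes monounsaturated fatty acids, followed. It was at 27.1, 26.6 and 65.9 CPM in EV, SH2 and SH3 numbered 1, at 13.8, 6.27 and 7.44 CPM numbered 13, and at 6.67, 6.41 and 10.1 CPM numbered 25. SH3 numbered 1 was more than any other library, and the log2 difference of 2.17 (SE 0.25, adjusted p = 0.000304) was 1.73 without it (adjusted p = 4.49e-05).

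SCD itself was at 1031, 1072 and 1622 CPM in the libraries numbered 1 and at 642 to 923 CPM in the other 6, a log2 difference of 0.73 (SE 0.11, adjusted p = 0.00106). LINC01268 rose by 0.84 (SE 0.12, adjusted p = 0.000722), beside 1.32 for MARCKS, 4526 bases away (SE 0.12, adjusted p = 9.98e-05). Over the 47 called members that were placed, the nearest tested gene had the same sign in 29 and was itself called with that sign in 11, a share close to that of all symbols called higher (24.1%) or lower (22.2%), so that nothing about the neighbours is read from it. The 11 included SLC25A1, the mitochondrial citrate carrier, at 0.42 beside LINC01311, and IFT57, a ciliary transport protein, at -0.45 beside LINC01215. MEF2C, a transcription factor 26060 bases from LINC00461, the host RNA of a miR-9 precursor, rose by 0.89 (adjusted p = 0.000174), while LINC00461 differed by 0.19 (SE 0.21, adjusted p = 0.48). Whether a member and its neighbour share their control was not tested.

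LINC00173, LINC00426 and LINC00535 rose by 1.59, 1.58 and 1.54 on the log2 scale (SE 0.23, 0.20 and 0.20). LINC00173 was at 2.23, 1.37 and 3.58 CPM in EV, SH2 and SH3 numbered 1 and at 0.595 to 0.952 CPM in the other 6 libraries. LINC00426 was at 2.61, 2.51 and 3.23 CPM against 0.485 to 1.27 CPM. LINC00535 (CIBAR1-DT) was at 4.40, 3.58 and 6.16 CPM against 1.23 to 2.01 CPM, and FAM92A1, whose exons it overlaps over 1.43% of its length, rose by 0.46. LINC00649 rose by 1.29 (SE 0.16), from 2.43 to 5.61 CPM in the 6 libraries numbered 13 and 25 to 8.86, 6.83 and 10.5 CPM. LINC01132 rose by 1.10 (SE 0.14), from 2.33 to 3.49 CPM to 4.73, 6.53 and 8.07 CPM. In each of these members the libraries numbered 1 did not overlap the others, and the call remained when any 1 library was left out, with adjusted p of at most 0.00542. Without SH3 numbered 1 the log2 differences of LINC00173, LINC00426, LINC00535, LINC00649 and LINC01132 were 1.22, 1.61, 1.25, 1.10 and 0.96.

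Leaving LINC00908 aside, the smallest p-values were those of LINC00341 and LINC00539, which were measured at higher counts. LINC00341 was at 24.2, 22.2 and 31.4 CPM in EV, SH2 and SH3 numbered 1, at 16.0, 13.9 and 16.0 CPM numbered 13, and at 10.5, 10.8 and 13.0 CPM numbered 25. In every group it was highest in number 1 and lowest in number 25. Its log2 difference was 0.96 for number 1 (SE 0.08, edgeR adjusted p = 8.76e-05) and -0.42 for 25 against 13 (SE 0.10, adjusted p = 0.036). RefSeq now counts it to SYNE3, a nuclear envelope protein, whose own row differed by 0.24 for number 1 (SE 0.20, adjusted p = 0.34). LINC00539 was at 29.2, 28.1 and 26.5 CPM in the libraries numbered 1, at 20.8, 16.2 and 15.4 CPM numbered 13, and at 12.1, 12.2 and 13.7 CPM numbered 25. Its log2 difference for number 1 was 0.91 (SE 0.09, adjusted p = 0.000174), and ZDHHC20, whose exons it overlaps over 7.95% of its length, differed by 0.01 (adjusted p = 0.874).

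The 4 members lower in the libraries numbered 1 changed less. LINC00959 (C10orf143) was at 2.45, 2.51 and 1.97 CPM against 2.66 to 3.73 CPM in the other 6 libraries, without overlap, a log2 difference of -0.49 (SE 0.14, adjusted p = 0.0154, and at most 0.0496 without any 1 library). LINC00176 (C20orf204) was at 0.413, 0.268 and 0.375 CPM against 0.432 to 0.834 CPM, a log2 difference of -0.76 (SE 0.28, adjusted p = 0.0485), and lost its call in 8 of 9 fits that left out 1 library, with an adjusted p of up to 0.187. LINC00665 overlapped between numbers, at 18.7, 22.4 and 19.1 CPM against 20.1 to 25.1 CPM, and its log2 difference of -0.19 (SE 0.07, adjusted p = 0.0465) was lost in all 9 such fits, with an adjusted p of up to 0.133. LINC01215 is described next, since its libraries numbered 13 differed from both other sets, and its call for number 1 (-0.44, SE 0.14, adjusted p = 0.0236) was lost in 5 such fits, with an adjusted p of up to 0.0977.

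**Figure D4:**
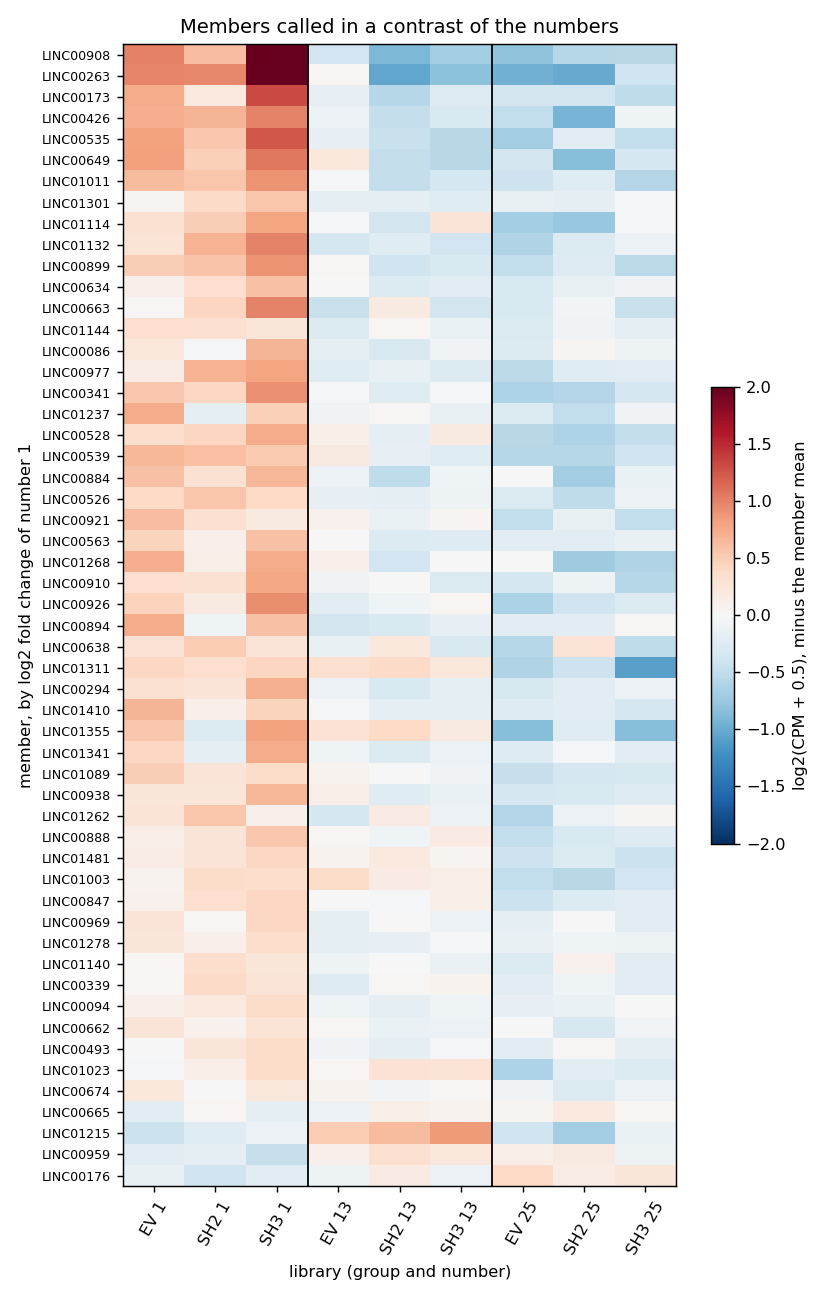
Heat map of the 54 members called in either contrast of the numbers, ordered by the log2 fold change of number 1. Columns are the 9 libraries by number and group, and colour is log2(CPM + 0.5) minus the member's mean over the libraries, limited to 2 in either direction. The left block of 3 columns is red for all but the lowest rows, with SH3 numbered 1 the darkest for LINC00908 and LINC00263, and LINC01215 alone is red in the middle block with blue on both sides.

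The libraries numbered 25 were lower than those numbered 13 in 9 members and higher in 0, where 5.87% of all symbols were called, 2.77% higher and 3.1% lower. Of the members, 84 had a negative log2 difference, and the median was -0.12 against 0.00 for all symbols. A negative median was not particular to the members, as it was also found in the other classes of long noncoding RNA described below. LINC01311 was at 3.74, 3.95 and 3.49 CPM in EV, SH2 and SH3 numbered 13 and at 1.73, 2.04 and 1.09 CPM numbered 25. The numbers did not overlap, the libraries numbered 1 were at 4.02, 3.78 and 4.05 CPM, and the log2 difference was -1.20 (SE 0.20, edgeR adjusted p = 0.00873). LINC01215 was at 5.61, 6.17 and 7.19 CPM in the libraries numbered 13, at 2.77, 2.15 and 3.42 CPM numbered 25, and at 2.70, 3.11 and 3.47 CPM numbered 1. It was high in number 13 in every group, and the log2 difference of 25 from 13 was -1.19 (SE 0.15, adjusted p = 0.00364).

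The other 7 were LINC01003 at -0.83 (SE 0.18), LINC00528 at -0.76 (SE 0.18), LINC01023 at -0.70 (SE 0.17), LINC00539 at -0.45 (SE 0.11), LINC00341 at -0.42 (SE 0.10), LINC00888 (SNHG33, a host gene of small nucleolar RNAs) at -0.40 (SE 0.09) and LINC00847 at -0.35 (SE 0.08), with adjusted p from 0.0247 to 0.0431. Of these 9 members, LINC01023 alone was not also called in the contrast of number 1. The count changed when single libraries were left out. It was 1 without EV numbered 25, SH2 numbered 13 or SH3 numbered 25, and 2 without EV numbered 13 or SH2 numbered 25. For those fits no share of all symbols is given, so a general loss of calls cannot be told apart from one of the members. Without SH3 numbered 1 it was 22 (2 higher, 20 lower), beside 19.2% of all symbols (9.87% higher, 9.37% lower). LINC01215 was called in all 9 of these fits, with an adjusted p of at most 0.0491.

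Among the 9 LINC symbols fixed as small-protein loci, 5 were members. Of these, LINC00493 (SMIM26) rose in the libraries numbered 1, from 23.5 to 27.8 CPM to 27.5, 32.4 and 35.4 CPM, a log2 difference of 0.32 (SE 0.08, adjusted p = 0.0115), with overlap between EV numbered 1 and SH2 numbered 25. LINC00086 had a log2 difference of 1.04, on 53 counts in the libraries numbered 1 and 48 in the other 6, and so reached the limit only through the former. LINC00998, LINC00116 and LINC01420 did not pass, at -0.13 (SE 0.07, adjusted p = 0.138), -0.14 (SE 0.08, adjusted p = 0.14) and 0.14 (SE 0.08, adjusted p = 0.168). Of the 13 described long noncoding RNAs on the other fixed list, 7 were members. LINC00173, LINC01268 and LINC00339 were called higher, the last at 0.34 (SE 0.08, adjusted p = 0.00634), and 4 did not pass. LINC00657 (NORAD) was at 336, 315 and 312 CPM in the libraries numbered 1 and at 346 to 360 CPM in the other 6, a log2 difference of -0.14 (SE 0.06, adjusted p = 0.0682). LINC00467 was highest in the libraries numbered 13, at 3.44, 3.89 and 3.49 CPM, against 2.09 to 2.95 CPM in the other 6, with an adjusted p of 0.0503 for number 1 and 0.0902 for 25 against 13. LINC00152 was at 23.1 CPM in SH3 numbered 1 and at 10.9 to 15.9 CPM elsewhere (adjusted p = 0.0878 for number 1).

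Members called higher in the libraries numbered 1 were found at every depth, but fewest among those with the lowest counts. Of all tested symbols, edgeR called 24.1% higher and 22.2% lower in this contrast. Among the 48 members with 1000 counts or more in total, 24 were called higher and 2 lower, among the 33 with 300 or more but under 1000 counts 17 and 1, and among the 30 with fewer 8 and 1. Since the limit of 100 counts could be reached through the libraries numbered 1, the count was also taken over the 97 members that held 100 counts in the other 6 libraries alone, of which 43 were called higher and 4 lower. The other 14 members, of which 6 were called higher and 0 lower, reached the limit only with the libraries numbered 1. All 14 had fewer than 300 counts in total and gave 6 of the 8 higher calls at that depth. No rise is therefore read from the members with the fewest counts. Of the 59 placed members that neither overlapped an exon of a tested gene nor had a copy elsewhere, 27 were called higher and 4 lower, and of the 30 with an exon overlap 14 and 0. Of the 10 members with a copy over at least 50% of the transcript, 3 were called higher, LINC01410, LINC01278 and LINC00894. Of the 14 divergent members 5 were called higher. Among the 13 members that are protein-coding in RefSeq, 4 were called higher and 2 lower. The higher calls in 8 of 30, 3 of 10 and 4 of 13 members lie near the 24.1% of all symbols. The divergent members are also few, so nothing about these subsets is read from their counts.

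The share of all counts that fell on the members was 0.152% in EV numbered 1, 0.135% in EV numbered 13 and 0.124% in EV numbered 25. In SH2 it was 0.135%, 0.133% and 0.127%, and in SH3 0.152%, 0.130% and 0.123%. The share was highest in number 1 and lowest in number 25 within each group, and the groups overlapped. Over the 69 members with no exon overlap this order did not hold in SH2, where the share was 0.0923% in number 1, 0.0948% in number 13 and 0.0910% in number 25. These are shares of bulk RNA, in which fewer cells with a transcript and less of it per cell cannot be told apart.

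Other classes of long noncoding RNA had smaller median differences than the members between number 1 and the others. Only the members had to reach 100 counts in total, however, a limit that 14 of them met only with the libraries numbered 1. Over the other 97 members the median was 0.32, against 0.34 over all 111. The share called higher, 44.1% in the members, was not smaller in every class. Of 380 tested symbols ending in -AS and a digit, 26.1% were called higher and 10.8% lower in the libraries numbered 1, with a median log2 difference of 0.13. Of 16 tested small nucleolar RNA host genes (SNHG), 8 were called higher and 1 lower, with a median of 0.23, and of 25 tested long noncoding RNAs on a fixed list of well-known names, 7 and 2, with a median of 0.14. Between numbers 25 and 13 the median was -0.05 in the antisense symbols, -0.14 in the SNHG symbols and -0.10 in the fixed list, beside -0.12 in the members. Differences between these classes and the members were not tested. Against EV, edgeR called no symbol of the 3 classes without the block, and with it 1 antisense symbol higher and 1 lower for both shRNAs.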

How the data were processed

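Messenger RNA was measured in 9 SKNO-1 libraries. The authors deposited, per library, whole-number read counts for 48104 RefSeq transcripts, not normalized, and the submitters' notes name STAR, featureCounts, DESeq2 and hg19 (GRCh37) without versions. The extraction text of the labels speaks of sorted marrow cells, although the samples are labelled as the line.

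Each symbol was represented by its row with the highest total, because several rows of a symbol can count the same reads. Counts were tested with edgeR 4.0.16 (quasi-likelihood, TMM, filterByExpr at a count of 10 and a total of 15), and p-values were adjusted by Benjamini-Hochberg over all 14199 symbols at 0.05. Groups were fitted without and with the number as a block. Numbers were compared with group as a term, which left 4 residual degrees of freedom. All p-values measure the spread between these libraries, which may be technical. The numbers pair the libraries: deviations of same-numbered libraries from their group means correlated at 0.377 or more in all 9 pairs. DESeq2 1.42.0 was an alternative, as were the filters, row choices, corrections and left-out libraries of the closing section. The fits were tested on simulated data.

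Positions and lengths came from GENCODE on GRCh37, copies from blastn 2.17.0, and names and promoters from RefSeq. Transcripts under 300 bases were given no level per length, which was decided after seeing the data. Named members were the 10 highest per length, those called (where over 12 in 1 direction, the 6 of smallest p and the 6 of largest fold), the 3 of smallest p per contrast, 3 on each side of the limit, and the fixed lists. The members and lists were chosen with earlier results of these data known. Counting floors cover counting error only.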

Additional observations from a re-analysis of the deposited data

Results flagged for a closer look

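LINC00240 moved in opposite directions under the 2 shRNAs. Each SH2 library was above the EV library of its number in CPM and each SH3 library was below it, which marked the member for a closer look. Some of these gaps were small, since EV and SH3 numbered 25 held 8 and 7 counts, and EV and SH2 numbered 1 held 18 each. The log2 difference of SH3 from SH2 was -0.90. The contrast of the shRNAs did not pass in edgeR (adjusted p = 0.998, and 0.309 with the number as a block), the member held 112 counts in all, and 24.6% of its transcript has a copy elsewhere in the genome. No other named member moved this way.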

How the results depend on the processing

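The count of members called between the groups was 0 in edgeR with all 9 libraries, under every other filter, scaling, row choice and correction tried, whereas DESeq2 with the replicate block gave 3 for SH2 against EV, 1 for SH3 against EV and 3 for both against EV. With the block, a choice added after seeing the data, fits that left out 1 library in turn called 0 to 7, 0 to 0, 0 to 8 and 0 to 1 members in the 4 contrasts (SH2, SH3, both, SH3 against SH2), and 0 without the block. For number 1 the other settings gave 40 (DESeq2) to 54 members, and fits without 1 library 39 to 53. For 25 against 13 the count was 5 with the rows of a symbol summed, 3 with no group term, and 1 to 22 without 1 library. The cause was not tested. The mean share of counts over the libraries was 0.135%, 0.0812% without the 3 most abundant members and 0.094% over members with no exon overlap. No named member reversed its sign under any alternative. Of 414 comparisons of a named member with 1 library left out, 69 lost and 7 gained the call, and of 322 under other settings 19 lost and 6 gained it. With all 9 libraries the block moved no edgeR call of a member. Depth limits the members with few counts, whose median SE for number 1 was 0.28 under 300 counts and 0.10 at 1000 or more.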

Other observations

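Of 25 tested long noncoding RNAs on a list of well-known names without a LINC number, 7 were called higher and 2 lower in the libraries numbered 1. GAS5, which accumulates when growth stops, rose by 0.88 on the log2 scale (SE 0.12, edgeR adjusted p = 0.000636), ZFAS1 by 0.80 (SE 0.11, adjusted p = 0.000586) and EPB41L4A-AS1 by 0.86 (SE 0.13, adjusted p = 0.000951). In each, SH3 numbered 1 was the highest library, at 836, 314 and 102 CPM. EV and SH2 numbered 1 were at 484 and 496 CPM for GAS5, 179 and 211 for ZFAS1, and 48.8 and 59.7 for EPB41L4A-AS1. No fit without SH3 numbered 1 is given for the RNAs of this list. MALAT1, an abundant nuclear RNA, had a fitted difference of 0.73 (SE 0.17, edgeR adjusted p = 0.00616) but did not rise in every group. It was at 347, 180 and 364 CPM in EV, SH2 and SH3 numbered 1, and SH2 numbered 25 was higher than SH2 numbered 1, at 198 CPM. NEAT1, its neighbour and the scaffold of paraspeckles, differed by 0.42 (SE 0.17, adjusted p = 0.0696). FIRRE rose by 0.62 (SE 0.09, adjusted p = 0.000653). MIR17HG, the host RNA of a miRNA cluster, differed by -0.34 in the libraries numbered 1 (SE 0.12, edgeR adjusted p = 0.0409). It was higher in number 25 than in number 13 by 0.62 (adjusted p = 0.0271). MEG3 and HOTAIRM1 had no count in any library, and H19 did not exceed 0.0681 CPM.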
